A study of Mus musculus with 8 samples.

Results

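The promoter windows described here carried at least 1.5-fold less histone H3 lysine 27 trimethylation (H3K27me3) in naive CD4+ T cells lacking both Ezh1 and Ezh2 (double KO) than in wild-type (WT) cells. Each window is 6 kb wide and centred on a gene start, and its area is the summed ChIP-seq coverage per 1000000 reads as deposited by the authors. A window is a member if (double KO area + 1)/(WT area + 1) was lower than 1 by 1.5-fold or more and the higher of the 2 areas was 1 or more. Of 18603 windows, 17976 reached that minimum, and 266 of these (1.48%) are members. For comparison, 205 windows (1.14%) were 1.5-fold higher in the double KO. The members were chosen by the double KO and WT areas, so these 2 libraries are given for the members as a description.

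The study profiled H3K27me3 and RNA in naive CD4+ T cells of lymph nodes of 129SV/B6 mice. The double KO mice were Ezh1 -/- Ezh2 fl/fl CD4-cre, the Ezh2 KO mice Ezh2 fl/fl CD4-cre, the Ezh1 KO mice Ezh1 -/-, and the last group was WT. The Ezh1 deletion was thus present from the germ line, and Ezh2 was deleted where Cre was made under Cd4 control, that is from T cell development onward. There was 1 ChIP-seq and 1 RNA-seq library per genotype, so no difference below has a replicate check, and no test of a genotype was possible. Intervals given with ratios are 95% exact binomial intervals from read equivalents (area converted back to reads) and cover counting error only.

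EZH1 and EZH2 are the alternative methyltransferases of Polycomb repressive complex 2 (PRC2), which places H3K27me3 on the promoters of genes that are silent in a given cell type. EZH2 is abundant in dividing cells, whereas EZH1 has weaker enzyme activity and is also found in resting cells. In T cells, H3K27me3 covers genes of other blood lineages, of effector programmes and of early development.

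The ChIP libraries held 88.2 M reads (M, 1000000) in the double KO, 78.2 M in the Ezh2 KO, 87.1 M in the Ezh1 KO and 79.7 M in WT, as recovered from the smallest steps of the coverage. A background level was taken as the median area of 7077 windows of genes in the top tertile of WT RNA, and was 10.4 in the double KO, 11.1 in the Ezh2 KO, 9.82 in the Ezh1 KO and 10.1 in WT. RNA of Ezh1 was 0.194 in the double KO and 0.196 in the Ezh1 KO, against 1.12 in the Ezh2 KO and 1.05 in WT (the exon mean of peak coverage per M reads). RNA of Ezh2 was 1.17 in the double KO, 1.08 in the Ezh2 KO, 0.913 in the Ezh1 KO and 0.925 in WT, so the mean over exons does not show its deletion. The T cell markers were present in all 4 RNA libraries, with summed values of 249.2 in the double KO, 247.8 in the Ezh2 KO, 244.2 in the Ezh1 KO and 280.5 in WT. Markers of B cells were not absent: their summed RNA was 31.5 in the double KO, 22.6 in the Ezh2 KO, 15.6 in the Ezh1 KO and 16.2 in WT, and none of the 34 was at 0 in the double KO.

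The promoters of 6 members show part of the range of base composition among the members, from starts dense in CpG to starts that hold few. The sequences run from 250 bases before the window centre to 49 after it, on the gene's strand of mm9, and capitals mark CpG. Hes1 (chr16:30064220-30064519, plus strand), a Notch target, has 33 CpG in its 300 bases. Irf5 (chr6:29476457-29476756, plus strand), a transcription factor of Toll-like receptor signalling, has 38, although its window centre did not coincide with a start in the annotation used. Bhlhe40 (chr6:108610373-108610672, plus strand), a transcriptional repressor made by activated T cells, has 24. The starts of H2-Ab1 (chr17:34399935-34400234, plus strand), which encodes an MHC class II beta chain, Plac8 (chr5:101001215-101001514, minus strand) and Btk (chrX:131118060-131118359, minus strand), a kinase of B cell receptor signalling, hold 3, 4 and 3.
Hes1: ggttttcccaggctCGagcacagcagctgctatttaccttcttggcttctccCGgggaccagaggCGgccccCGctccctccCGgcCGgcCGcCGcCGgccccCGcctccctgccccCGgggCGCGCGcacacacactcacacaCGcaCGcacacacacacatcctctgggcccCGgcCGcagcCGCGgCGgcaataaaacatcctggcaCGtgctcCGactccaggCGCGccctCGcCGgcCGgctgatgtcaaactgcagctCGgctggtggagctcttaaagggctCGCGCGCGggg
Irf5: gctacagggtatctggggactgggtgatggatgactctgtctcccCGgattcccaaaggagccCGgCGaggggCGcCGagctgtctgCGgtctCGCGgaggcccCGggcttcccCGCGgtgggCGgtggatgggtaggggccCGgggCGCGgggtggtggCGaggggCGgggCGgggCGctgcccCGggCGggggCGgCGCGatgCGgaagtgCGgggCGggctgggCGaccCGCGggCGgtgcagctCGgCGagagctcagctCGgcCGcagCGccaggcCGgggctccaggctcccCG
Bhlhe40: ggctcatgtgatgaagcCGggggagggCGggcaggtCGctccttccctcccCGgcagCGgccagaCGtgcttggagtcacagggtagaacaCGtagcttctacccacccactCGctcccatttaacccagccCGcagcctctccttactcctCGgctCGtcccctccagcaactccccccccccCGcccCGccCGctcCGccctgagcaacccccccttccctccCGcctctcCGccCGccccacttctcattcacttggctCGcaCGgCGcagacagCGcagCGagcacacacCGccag
H2-Ab1: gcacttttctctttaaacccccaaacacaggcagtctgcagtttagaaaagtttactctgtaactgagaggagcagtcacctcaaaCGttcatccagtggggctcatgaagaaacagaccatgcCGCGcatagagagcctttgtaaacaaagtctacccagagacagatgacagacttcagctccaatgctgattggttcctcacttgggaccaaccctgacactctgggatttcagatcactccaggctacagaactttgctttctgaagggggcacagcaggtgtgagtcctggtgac
Plac8: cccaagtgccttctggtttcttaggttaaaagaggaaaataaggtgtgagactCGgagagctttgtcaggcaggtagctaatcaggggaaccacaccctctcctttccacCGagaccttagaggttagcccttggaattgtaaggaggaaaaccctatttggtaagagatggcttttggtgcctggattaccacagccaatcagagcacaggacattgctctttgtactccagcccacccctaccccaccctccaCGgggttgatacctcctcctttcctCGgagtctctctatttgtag
Btk: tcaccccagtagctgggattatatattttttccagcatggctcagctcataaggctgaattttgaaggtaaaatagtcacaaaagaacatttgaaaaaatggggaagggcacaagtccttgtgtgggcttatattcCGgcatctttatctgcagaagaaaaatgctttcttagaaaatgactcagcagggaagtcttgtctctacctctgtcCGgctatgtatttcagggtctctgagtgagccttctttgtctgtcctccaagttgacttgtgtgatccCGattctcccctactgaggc

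Most members were lightly marked in WT. Their median area was 14.6 in the double KO, 17.5 in the Ezh2 KO, 26.1 in the Ezh1 KO and 25.4 in WT. Relative to each library's own background these medians were 1.40 times background in the double KO, 1.58 in the Ezh2 KO, 2.65 in the Ezh1 KO and 2.50 in WT. Behind a member stood a median of 212.5 read equivalents in the double KO and 334.5 in WT, with lowest values of 7 in the double KO and 18 in WT. The 254 separate stretches of genome that the members cover show that few share sequence: 23 members overlapped another, and 4 had the same coordinates as another member.

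By WT level, members were most frequent at 2 to 4 times background. Of the 3559 windows at 2 to 4 times background in WT, 159 (4.47%) were members, and these make up 59.8% of the set. Windows at 1 to 2 times background gave 69 of 7112 (0.970%), and windows at 4 times background or more, called marked below, gave 29 of 2231 (1.3%). Below background there were 6 of 4671 windows at 0.5 to 1 times and 3 of 403 under 0.5 times. In the class at 2 to 4 times background, member areas had a median of 15.5 in the double KO, 19.3 in the Ezh2 KO, 28.5 in the Ezh1 KO and 27.7 in WT. The other 3400 windows of that class had medians of 27.8 in the double KO, 24.7 in the Ezh2 KO, 32.2 in the Ezh1 KO and 27.4 in WT. Their WT median was thus within 0.3 of that of the members. The lower double KO median of the members follows from the rule that chose them.

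**Figure D1:**
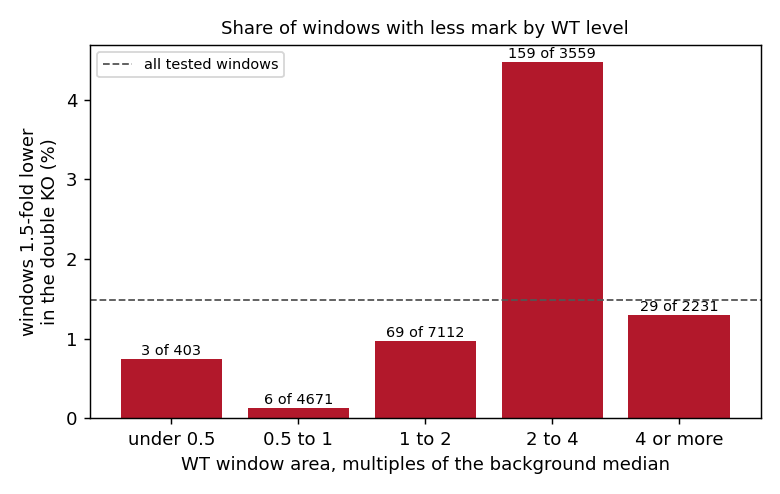
Percentage of windows that were at least 1.5-fold lower in the double KO than in WT (y axis) by the area of the window in WT as a multiple of the background median (x axis), with counts above the bars and the share over all tested windows as a dashed line. The class at 2 to 4 times background stands highest, at 4.47%.

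The threshold cut through a continuous distribution. The members nearest to it were Aldh3b1, with areas of 9.89 in the double KO and 15.3 in WT, Klf9, with 14.6 in the double KO and 22.4 in WT, and Ang4, with 18.3 in the double KO and 28.0 in WT. Just outside were Nod2, with 14.0 in the double KO and 21.4 in WT, Pcyox1, with 16.1 in the double KO and 24.6 in WT, and Ocm, with 13.0 in the double KO and 20.1 in WT. The median log2 ratio of double KO to WT was -0.72 over the members and 0.05 over all tested windows, and 25 members were 2-fold lower or more.

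The lowest ratio of all belonged to Coil, the gene of coilin, the scaffold protein of Cajal bodies. Its window (chr11:88828566-88834566) had an area of 17.5 in the double KO, 110.0 in the Ezh2 KO, 17.7 in the Ezh1 KO and 132.8 in WT. The level was thus low in both libraries from Ezh1 -/- mice and high in the other 2, a pattern that set Coil apart from the other members at 2-fold. The log2 ratio was -2.85 in the double KO against WT (interval -3.12 to -2.73) and 2.57 in the Ezh2 KO against the Ezh1 KO (2.44 to 2.83). Neighbouring windows had no difference of that size. Scpep1, on one side, where both libraries from Ezh1 -/- mice were slightly below the other 2, had areas of 9.88 in the double KO, 12.3 in the Ezh2 KO, 9.88 in the Ezh1 KO and 13.2 in WT, and Trim25, on the other, had 8.14 in the double KO, 10.7 in the Ezh2 KO, 5.59 in the Ezh1 KO and 6.26 in WT. The Coil window lies 12.3 Mb from that of Ezh1 on chromosome 11, so loss of Ezh1 and any difference in chromosome 11 sequence carried along with the deleted allele in these 129SV/B6 mice cannot be told apart there. RNA of Coil was 0.375 in the double KO, 0.495 in the Ezh2 KO, 0.415 in the Ezh1 KO and 0.502 in WT.

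In each of the 24 other members at 2-fold the double KO had the lowest area, and in all of them but Zfp608 the Ezh2 KO lay between the double KO and WT. Among signalling adaptors and kinases, Pik3ap1, which links B cell and Toll-like receptors to phosphoinositide 3-kinase (PI3K), had areas of 14.4 in the double KO, 18.7 in the Ezh2 KO, 33.4 in the Ezh1 KO and 34.6 in WT. Gab2, a scaffold that recruits PI3K, had 16.6 in the double KO, 27.9 in the Ezh2 KO, 37.2 in the Ezh1 KO and 39.5 in WT. Sgk3, a kinase that acts downstream of PI3K, had 15.1 in the double KO, 18.4 in the Ezh2 KO, 31.9 in the Ezh1 KO and 34.8 in WT. In all 3 the Ezh1 KO stayed within 0.13 log2 units of WT, and the Ezh2 KO lay between the double KO and WT. Tifa, an adaptor of TRAF6, Gnaq, a G protein alpha subunit, Nuak2, an AMPK-related kinase, Ptprj, a receptor tyrosine phosphatase, and Edaradd, an adaptor of the ectodysplasin receptor, kept that order, with areas of 10.8 to 19.2 in the double KO against 23.04 to 40.3 in WT.

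Among transcription factors and corepressors, Cbfa2t3, a corepressor of blood cell differentiation, had the lowest double KO area of the 2-fold members. Its areas were 7.87 in the double KO, 12.1 in the Ezh2 KO, 29.0 in the Ezh1 KO and 20.2 in WT, so the Ezh1 KO stood above WT. Irf5 had 11.1 in the double KO, 15.3 in the Ezh2 KO, 24.3 in the Ezh1 KO and 25.4 in WT. Bhlhe40 had 10.5 in the double KO, 13.0 in the Ezh2 KO, 24.2 in the Ezh1 KO and 22.0 in WT. Hes1 had 21.1 in the double KO, 37.7 in the Ezh2 KO, 45.8 in the Ezh1 KO and 43.2 in WT. For Hes1 most of the difference lay between the double KO and the Ezh2 KO, whereas in Irf5 and Bhlhe40 the Ezh2 KO area was nearer to that of the double KO than to that of WT. Atf6, a transcription factor of the endoplasmic reticulum stress response, had areas of 22.3 in the double KO, 37.5 in the Ezh2 KO, 38.2 in the Ezh1 KO and 47.7 in WT, so both single KOs were below WT by similar amounts. Zfp608, a zinc finger gene, had 17.6 in the double KO, 39.9 in the Ezh2 KO, 45.3 in the Ezh1 KO and 38.9 in WT, so that neither single KO was below WT.

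Surface, matrix and transport genes made up most of the rest. Atp6v0a4, a subunit of the vacuolar proton pump known from kidney, had areas of 22.7 in the double KO, 40.3 in the Ezh2 KO, 58.2 in the Ezh1 KO and 57.7 in WT. Lamc1, the laminin gamma 1 chain, had 20.4 in the double KO, 34.9 in the Ezh2 KO, 43.0 in the Ezh1 KO and 45.3 in WT. Cd24a, a surface glycoprotein of B cells and immature lymphocytes, had 13.8 in the double KO, 19.3 in the Ezh2 KO, 32.0 in the Ezh1 KO and 29.9 in WT. These 3, like H2-Ab1 with 13.1 in the double KO, 20.9 in the Ezh2 KO, 30.4 in the Ezh1 KO and 28.0 in WT, had an Ezh1 KO area within 0.12 log2 units of WT. Chsy1, a chondroitin sulfate synthase, had 11.7 in the double KO, 13.0 in the Ezh2 KO, 24.2 in the Ezh1 KO and 25.2 in WT, with most of the difference already present in the Ezh2 KO. BC013712 had 15.5 in the double KO, 23.8 in the Ezh2 KO, 40.5 in the Ezh1 KO and 42.2 in WT. The remaining members at 2-fold, Plekhg3, Tspan2, Ogfrl1 and 5031414D18Rik, had areas of 13.4 to 14.8 in the double KO against 28.0 to 33.2 in WT.

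**Figure D2:**
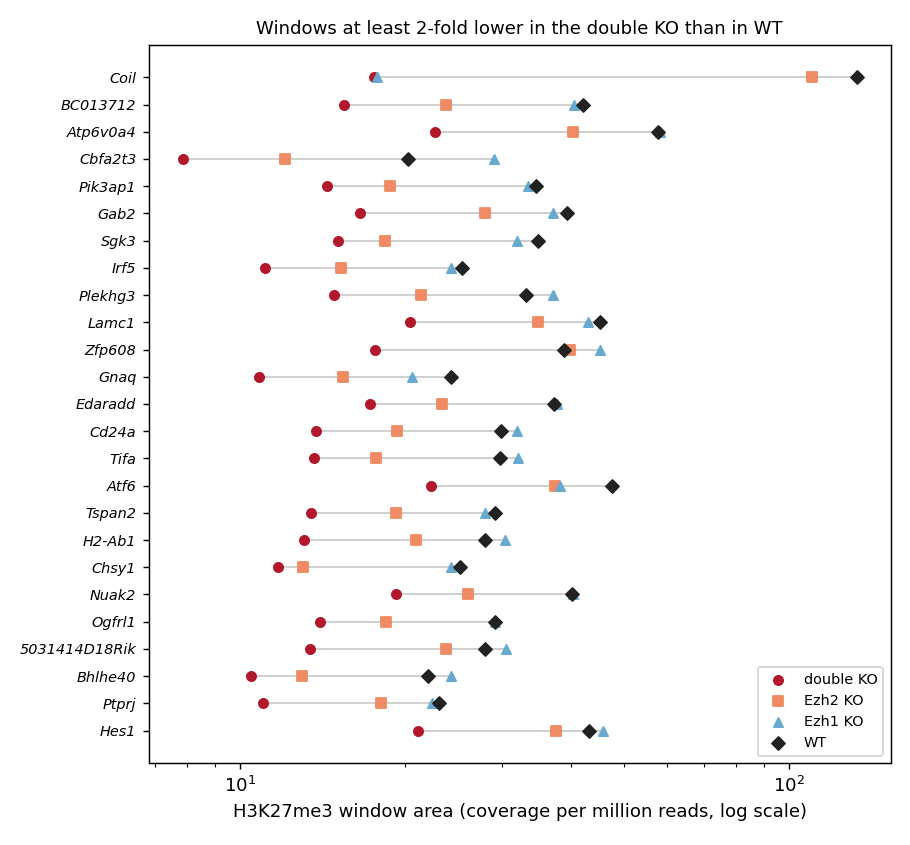
H3K27me3 window area (x axis, coverage per M reads, log scale) of the 25 members that were at least 2-fold lower in the double KO than in WT, with 1 point per library. The double KO point lies furthest left in every row, the Ezh2 KO point usually comes next, and Coil is the row in which the Ezh1 KO point coincides with that of the double KO.

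Of the 29 members marked in WT, 6 were also 2-fold lower: Coil, BC013712, Atp6v0a4, Lamc1, Atf6 and Hes1. The next were Dennd5a, an exchange factor for Rab proteins, with areas of 24.4 in the double KO, 38.3 in the Ezh2 KO, 43.2 in the Ezh1 KO and 49.8 in WT, and Il9, a cytokine gene of T helper cells, with 27.9 in the double KO, 37.4 in the Ezh2 KO, 55.9 in the Ezh1 KO and 54.5 in WT. Rnf216, an E3 ubiquitin ligase, had 25.4 in the double KO, 40.6 in the Ezh2 KO, 40.5 in the Ezh1 KO and 48.9 in WT, and Rep15 had 28.4 in the double KO, 41.0 in the Ezh2 KO, 49.1 in the Ezh1 KO and 54.1 in WT. Even these well-marked windows kept a double KO area above background, with a median of 25.7 in the double KO against 47.2 in WT. Over the other 2202 marked windows the median log2 ratio of double KO to WT was 0.12.

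The single KOs were set beside the members next. The comparisons with WT share the WT library with the choice of members, so their ratios are not independent of the choice. In the Ezh2 KO, 77 of 266 members were 1.5-fold lower than in WT, against 0.795% of all tested windows, and 0 were 1.5-fold higher, against 0.606%. The median log2 ratio was -0.49 over members and -0.01 over all windows, and the Ezh2 KO was below WT in 263 members, against 51.5% of all tested windows. The order double KO below Ezh2 KO below WT held in 247 members. The rule had already set the double KO below WT in all of them, and the share of all windows with this order was not computed. In the Ezh1 KO, 6 members were 1.5-fold lower than in WT, against 0.256% of all windows, and 0 were higher, against 1.93%. There the median log2 ratio was -0.04 over members and 0.09 over all windows, and the Ezh1 KO was above WT in 108 members, against 64.2% of all tested windows.

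The Ezh2 KO against the Ezh1 KO uses neither library that chose the members. In that comparison 80 members were 1.5-fold lower in the Ezh2 KO, against 6.71% of all windows, and 2 were higher, against 1.6%. The median log2 ratio was -0.47 over 265 members that reached the minimum and -0.10 over all windows. The Ezh2 KO was below the Ezh1 KO in 246 members, against 60.0% of all tested windows. The counting interval lay below 0 in 213 members and above 0 in 4. Intervals were not computed for the other windows, so these 2 counts have no share over all windows beside them and do not set the members apart. The gap depended on the class of WT level. Among windows at 1 to 2 times background, the median was -0.40 over 69 members and -0.04 over the others, and 18.8% of members were 1.5-fold lower, against 2.34% of the others. Among windows at 2 to 4 times background, it was -0.52 over 159 members and -0.38 over the 3400 others, and 62 of the 159 (39.0%) were 1.5-fold lower, against 18.6% of the others. Among marked windows the gap was small, with medians of -0.44 over 29 members and -0.41 over the 2202 others. There 17.2% of members were 1.5-fold lower, against 14.1% of the others. In the class at 2 to 4 times background the Ezh1 KO against WT had a median of -0.04 over members and 0.22 over the others, and the Ezh2 KO against WT had -0.53 over members and -0.15 over the others. These counts depend on how libraries are scaled: with the median of marked windows set equal, 4 members in place of 80 were 1.5-fold lower in the Ezh2 KO than in the Ezh1 KO, 34 in place of 77 in the Ezh2 KO than in WT, and 31 in place of 6 in the Ezh1 KO than in WT. Dividing a library by a constant shifts all its ratios nearly alike. Scaling could therefore hardly move the distance between the member median and that of all windows. That distance was between -0.38 and -0.36, at -0.48, and between -0.15 and -0.14 in these 3 comparisons under the scalings. With the highest bin in place of the area and pseudocount and minimum scaled, a setting chosen after seeing the data, it was -0.25, -0.40 and -0.11.

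**Figure D3:**
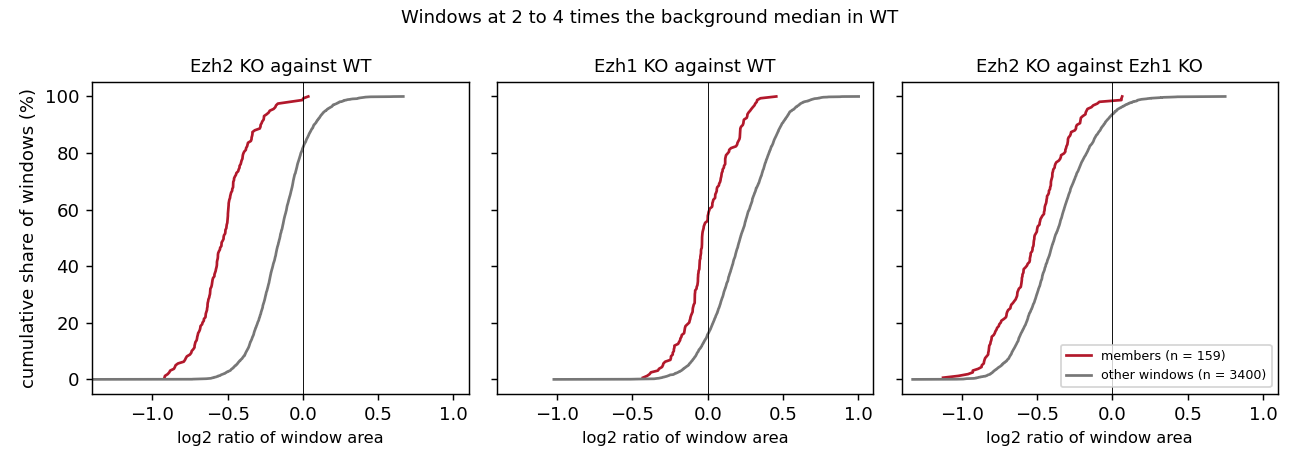
Cumulative percentage of windows (y axis) by log2 ratio of window area (x axis) for windows at 2 to 4 times background in WT, with the 159 members in red and the 3400 other windows in grey. The member curve lies left of the other in all 3 panels, with medians of -0.52 over members and -0.38 over the others for the Ezh2 KO against the Ezh1 KO.

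Individual members spread widely around these medians. The largest deficits of the Ezh2 KO against the Ezh1 KO were in Cbfa2t3, with a log2 ratio of -1.20 (interval -1.54 to -0.999), Myadm, with -1.16, 5031439G07Rik, with -1.12, Slc2a6, a glucose transporter gene, with -1.02, and Plcg2, the phospholipase C of B cell receptor signalling, with -0.96. Myadm had areas of 8.996 in the double KO, 9.52 in the Ezh2 KO, 22.5 in the Ezh1 KO and 16.8 in WT, and Slc2a6 had 11.5 in the double KO, 11.9 in the Ezh2 KO, 25.3 in the Ezh1 KO and 22.8 in WT. In both, the Ezh2 KO and the double KO were nearly equal and the Ezh1 KO was above WT. At the other end, besides Coil, stood 2310001H12Rik, with areas of 2.46 in the double KO, 5.95 in the Ezh2 KO, 2.01 in the Ezh1 KO and 5.55 in WT, again low in both libraries from Ezh1 -/- mice, but at a level below background. Magea8, with 3.01 in the double KO, 3.595 in the Ezh2 KO, 2.27 in the Ezh1 KO and 5.04 in WT, and Vmn1r127, with 0.717 in the double KO, 1.62 in the Ezh2 KO, 0.827 in the Ezh1 KO and 1.74 in WT, were also below background, and their intervals for the Ezh2 KO against the Ezh1 KO included 0. Hist1h2ab and Hist1h3b had areas of 8.95 and 8.40 in the double KO, 13.3 and 13.1 in the Ezh2 KO, 9.61 and 9.73 in the Ezh1 KO, and 15.6 and 15.5 in WT.

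Against WT, the lowest Ezh2 KO ratios were those of Dusp16, a MAP kinase phosphatase, with areas of 9.27 in the Ezh2 KO and 18.5 in WT, 5031439G07Rik, with 14.1 in the Ezh2 KO and 27.6 in WT, Rere, a transcriptional corepressor, with 12.0 in the Ezh2 KO and 23.5 in WT, Phka1, a phosphorylase kinase subunit, with 10.0 in the Ezh2 KO and 19.8 in WT, and Chsy1. In Dusp16, 5031439G07Rik and Rere the double KO area was above that of the Ezh2 KO, at 11.9, 15.4 and 13.5. Only 3 members were not below WT in the Ezh2 KO, namely Zfp608, 2310001H12Rik and Ttc21a, whose areas were 15.4 in the double KO, 24.1 in the Ezh2 KO, 28.6 in the Ezh1 KO and 24.1 in WT. The highest Ezh1 KO ratios to WT were in Cbfa2t3, Plxnb2, a semaphorin receptor, with 38.6 in the Ezh1 KO and 27.8 in WT, Aldh3b1, with 20.9 in the Ezh1 KO and 15.3 in WT, Myadm, and Gadd45b, a stress-response gene, with 19.97 in the Ezh1 KO and 14.9 in WT. None of these reached 1.5-fold.

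The members were read by 19 gene lists of blood cell types, pathways and complexes, which were chosen with earlier results of these data known. These counts use the contrast that chose the members and are a description, to be set beside 1.48% of all tested windows. The antigen receptor and PI3K adaptor list had 7 members among 36 tested windows (19.4%), with a median log2 ratio of double KO to WT of -0.01 over the list, so the remainder of the list did not lean the same way. Its members were Pik3ap1, Gab2, Sgk3, Btk, Sykb, Lyn and Plcg2. Sykb, the kinase SYK of B cell and Fc receptors, had areas of 15.6 in the double KO, 20.1 in the Ezh2 KO, 33.3 in the Ezh1 KO and 27.2 in WT. Lyn, a Src-family kinase of B and myeloid cells, had 22.0 in the double KO, 24.2 in the Ezh2 KO, 37.2 in the Ezh1 KO and 38.5 in WT. Plcg2 had 13.1 in the double KO, 15.4 in the Ezh2 KO, 30.8 in the Ezh1 KO and 26.4 in WT, and Btk had 7.20 in the double KO, 9.52 in the Ezh2 KO, 13.4 in the Ezh1 KO and 12.9 in WT. All 7 had their lowest area in the double KO and the next in the Ezh2 KO.

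B cell and antigen presentation genes came next. The B cell and plasma cell list had 3 members among 34 windows (8.82%), namely Btk, Cr2 and Fcrla, with a list median of -0.25 and 25 windows below 0. Cr2, the complement receptor of B cells, had areas of 17.7 in the double KO, 18.3 in the Ezh2 KO, 30.2 in the Ezh1 KO and 31.2 in WT. The MHC class II list had 2 members among 11 (18.2%), H2-Ab1 and H2-Eb2, the second with 11.7 in the double KO, 16.2 in the Ezh2 KO, 20.02 in the Ezh1 KO and 21.8 in WT. Myeloid genes gave 3 of 39 (7.69%): Sfpi1, the transcription factor PU.1, with 15.5 in the double KO, 15.9 in the Ezh2 KO, 29.2 in the Ezh1 KO and 24.2 in WT, Irf8, with 11.7 in the double KO, 12.1 in the Ezh2 KO, 20.9 in the Ezh1 KO and 18.9 in WT, and Irf5. In Cr2, Sfpi1 and Irf8 the Ezh2 KO area lay within 0.7 of that of the double KO. The Toll-like receptor list gave 3 of 35 (8.57%), Irf5, Irf8 and Irak3, an inhibitor of that pathway, with 13.1 in the double KO, 15.3 in the Ezh2 KO, 22.2 in the Ezh1 KO and 21.3 in WT.

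Other lists had 1 or 2 members each: Atp6v0a4 and Atp6v0a1 of 24 vacuolar ATPase windows, Plac8 of 23 CD8 T and natural killer cell windows, Hes1 of 28 Notch windows, Ccne2, cyclin E2, of 28 cell cycle windows, Lamc1 of 35 matrix windows, Il9 of 37 T helper windows and Bhlhe40 of 41 activation windows. Several lists had none: the 10 T cell, 26 naive T cell, 37 interferon-stimulated, 30 Hox, 90 developmental transcription factor, 39 Wnt, Hedgehog and BMP ligand, and 34 Polycomb windows. The classical Polycomb targets of development were instead above WT in median. Their median log2 ratios of double KO to WT were 0.27 for Hox windows, 0.35 for developmental transcription factors and 0.27 for the ligands. The median was 0.05 over all tested windows and 0.12 over marked windows that are not members. These list medians were not computed under other scalings, which shift all ratios of a library nearly alike. Windows of replication-dependent histone genes, a group picked after its values had been seen, gave 8 of 61 (13.1%). Their areas were 6.04 to 15.7 in the double KO against 10.00 to 27.7 in WT, at most 2.73 times background. These genes are near-identical copies, and ChIP reads without a single location were not kept, so how fully their windows were read is uncertain. How many separate stretches the 8 cover was not counted.

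**Figure D4:**
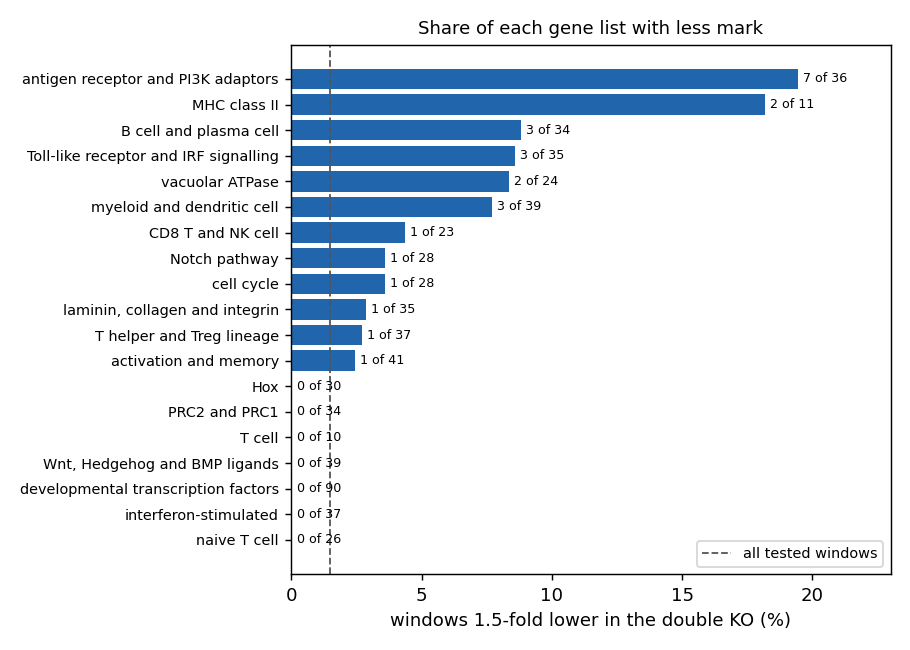
Percentage of tested windows in each gene list that were at least 1.5-fold lower in the double KO than in WT (x axis), with counts beside the bars and the share over all tested windows as a dashed line. Antigen receptor and PI3K adaptors and MHC class II stand highest, on 7 and 2 windows, and 7 lists have no member. The lists were chosen with earlier results of these data known.

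RNA comes from other libraries and another assay than the rule. RNA values average the peak coverage of a gene's exons per M reads and are not divided by length, so they are compared between libraries only. Of 265 members with RNA, 30 (11.3%) had a value of 1 or more in WT, against 26.3% of all 18484 windows with RNA. The median RNA of members was 0.171 in the double KO, 0.142 in the Ezh2 KO, 0.102 in the Ezh1 KO and 0.105 in WT. Without a minimum level, 195 of the 265 members (73.6%) had more RNA in the double KO than in WT, against 42.2% of all windows, with median log2 ratios of 0.13 and -0.02. On that scale 16 members were at least 2-fold higher and 0 were 2-fold lower, and the 16 are 6.04% of members against 0.563% of all windows. With a minimum of 1 in the higher library 42 members remained, 12 of which passed through the double KO alone and so had to be higher there. Of these 42, 5 were 2-fold higher, against 0.971% of genes tested, and 0 were 2-fold lower, against 0.139%. At 1.5-fold, 7 were higher, against 2.42%, and 1 was lower, against 2.22%. The 42 count near-identical histone genes as separate members. Without histone genes 34 remained, of which 5 were 2-fold higher and 0 were 2-fold lower. Of the 30 with a value of 1 or more in WT, 1 was 2-fold higher, against 0.308% of all genes at that level.

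The 5 were Plac8, H2-Ab1, Sykb, Ube2l6 and Csda. RNA of H2-Ab1 was 8.37 in the double KO, 4.66 in the Ezh2 KO, 3.86 in the Ezh1 KO and 2.45 in WT. The library with the least mark at H2-Ab1 thus had the most RNA, while the Ezh1 KO had more RNA than WT with no less mark. RNA of Sykb was 1.04 in the double KO, 0.712 in the Ezh2 KO, 0.292 in the Ezh1 KO and 0.347 in WT. RNA of Csda, which encodes a cold shock domain protein, was 1.92 in the double KO, 1.81 in the Ezh2 KO, 0.970 in the Ezh1 KO and 0.865 in WT. The other 2 were highest in the Ezh2 KO. RNA of Plac8 was 3.04 in the double KO, 7.47 in the Ezh2 KO, 0.731 in the Ezh1 KO and 0.680 in WT, and RNA of Ube2l6, the conjugating enzyme for the ubiquitin-like protein ISG15, was 1.03 in the double KO, 1.299 in the Ezh2 KO, 0.493 in the Ezh1 KO and 0.346 in WT. The window areas of Plac8 were 13.0 in the double KO, 14.7 in the Ezh2 KO, 26.5 in the Ezh1 KO and 26.9 in WT, and those of Ube2l6 were 15.7 in the double KO, 17.9 in the Ezh2 KO, 28.6 in the Ezh1 KO and 29.3 in WT, so for both genes the 2 libraries with less mark were the 2 with more RNA. The same 2 libraries were also higher in some lists that hold 0 or 1 members. Other such lists went the other way, and the T cell and naive T cell sums were highest in WT. The summed RNA of interferon-stimulated genes was 303.9 in the double KO, 320.8 in the Ezh2 KO, 201.0 in the Ezh1 KO and 178.9 in WT, with 38 of 39 higher in the double KO than in WT. That of CD8 T and natural killer cell genes, a list that includes Plac8, was 14.9 in the double KO, 22.0 in the Ezh2 KO, 9.87 in the Ezh1 KO and 9.85 in WT. Their part in the RNA of Plac8 and Ube2l6 was not tested.

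The other 11 of the 16 stayed below 1 in every library. They were Lrrk2, Cr2, BC013712, Lyn, Ctsh, Cd24a, Icosl, Fcrl1, Pik3ap1, Lmo2 and Scd1. Cr2, Lyn, Cd24a, Icosl, Fcrl1 and Pik3ap1 are known from B cells. RNA of Lyn was 0.786 in the double KO, 0.548 in the Ezh2 KO, 0.237 in the Ezh1 KO and 0.278 in WT, and RNA of Cd24a was 0.831 in the double KO, 0.487 in the Ezh2 KO, 0.379 in the Ezh1 KO and 0.316 in WT. RNA of Cr2 was 0.285 in the double KO, 0.114 in the Ezh2 KO, 0.0674 in the Ezh1 KO and 0.0483 in WT. In all 11 the double KO was the highest library and the Ezh2 KO the next. The same order was seen in Ms4a1, a B cell marker that is not a member, whose RNA was 0.926 in the double KO, 0.321 in the Ezh2 KO, 0.252 in the Ezh1 KO and 0.189 in WT. Of the 34 B cell markers, 30 were higher in the double KO than in WT. The MHC class II sum was 27.3 in the double KO, 16.8 in the Ezh2 KO, 12.0 in the Ezh1 KO and 9.95 in WT, and 10 of 11 genes were higher in the double KO. The myeloid sum was 25.4 in the double KO, 21.1 in the Ezh2 KO, 15.1 in the Ezh1 KO and 16.6 in WT, with 30 of 39 higher. The part of such cells in the RNA and in the mark of the members was not tested, and in bulk samples more cells of a type and more RNA per cell cannot be told apart. The members of the B cell, MHC class II, antigen receptor and myeloid lists were then left out, after these values had been seen. With no minimum level, 11 of the other 251 members were 2-fold higher, against 0.563% of all windows. With the minimum, 3 of 39 were, against 0.971% of genes tested. These lists do not hold Cd24a, Icosl and Fcrl1, which stay among the 11, so not all B cell genes were left out.

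**Figure D5:**
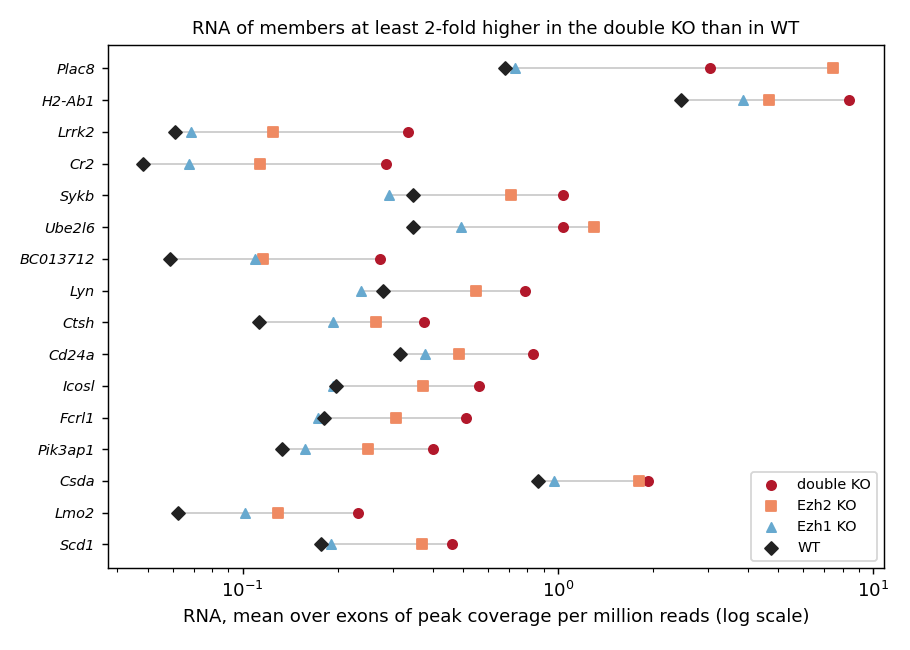
RNA (x axis, exon mean of peak coverage per M reads, log scale) of the 16 members at least 2-fold higher in the double KO than in WT with no minimum level, with 1 point per library. The double KO point lies furthest right in 14 rows and the Ezh2 KO point in those of Plac8 and Ube2l6.

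A lower mark often went without a 2-fold difference in RNA on the scale with 0.1 added, which understates differences at low levels. Among the members at 2-fold, RNA of Sgk3 was 1.31 in the double KO, 1.31 in the Ezh2 KO, 1.02 in the Ezh1 KO and 1.37 in WT. RNA of Hes1 was 0.0551 in the double KO, 0.115 in the Ezh2 KO, 0.0138 in the Ezh1 KO and 0.0139 in WT, and RNA of Irf5 was 0.339 in the double KO, 0.217 in the Ezh2 KO, 0.177 in the Ezh1 KO and 0.193 in WT. The Hes1 values, like those of other genes near the floor, differ by more without the added 0.1. RNA of Il9 stayed at 0.00531 or less in every library. Of the 25 members at 2-fold, 4 had 2-fold more RNA in the double KO than in WT with no minimum level, 21 had more by any amount, and the median log2 ratio was 0.44.

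Member RNA in the single KOs was set beside that of all genes in the same way. With no minimum level, 5 of 265 members were 2-fold higher in the Ezh2 KO than in WT and 0 were lower, against 0.660% and 0.162% of all windows, with median log2 ratios of 0.15 over members and 0.02 over all windows. With the minimum, 3 of 38 were 2-fold higher, namely Plac8, Ube2l6 and Chsy1, against 0.983% of genes tested, and 0 were lower, against 0.275%. All 3 passed the minimum through the Ezh2 KO alone, and of the 30 members at 1 or more in WT 0 were 2-fold higher, against 0.391%. At 1.5-fold, 10 were higher, against 3.03%, and 1 was lower, against 2.38%. The medians were then 0.26 over members and -0.04 over all genes, but 8 of the 38 passed through the Ezh2 KO alone, and the difference between members and all genes was 0.30 with histone genes and 0.094 without them. In the Ezh1 KO, 0 of 31 members were 2-fold higher than in WT, against 0.101%, and 1 was 2-fold lower, against 0.223%, with medians of -0.07 over members and -0.13 over all genes, and of -0.04 and -0.03 with no minimum level. At 1.5-fold, 1 was higher, against 0.405%, and 2 were lower, against 2.53%. All 3 RNA comparisons share the WT library.

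The highest RNA among members was that of histone genes and Heca. RNA of Hist1h2ah was 37.4 in the double KO, 44.5 in the Ezh2 KO, 28.7 in the Ezh1 KO and 34.4 in WT, with values for Hist1h2ab and Hist1h2ad that were nearly the same, and RNA of Hist1h2bf was 10.7 in the double KO, 17.0 in the Ezh2 KO, 10.2 in the Ezh1 KO and 8.64 in WT. RNA of Heca was 8.82 in the double KO, 7.05 in the Ezh2 KO, 7.34 in the Ezh1 KO and 7.76 in WT. The window of Heca was near background, with areas of 7.06 in the double KO, 9.15 in the Ezh2 KO, 8.28 in the Ezh1 KO and 11.5 in WT.

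Members were spread over the genome, at 0.955% to 2.73% of tested windows on chromosomes 1 to 19 and X. Chromosome 10 held 23 members of 843 windows and was the highest. Within 20 Mb of Ezh1 on chromosome 11 there were 9 members of 683 windows (1.32%), and within 20 Mb of Ezh2 on chromosome 6 there were 5 of 301 (1.66%).

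Member promoters were richer in CpG than other windows at 1 to 2 and at 2 to 4 times background, and not by every measure among marked windows. In the central 1000 bases of the window on mm9, the median CpG observed over expected was 0.71 over members and 0.63 over all tested windows with sequence. At 1 to 2 times background it was 0.77 over members and 0.58 over the others. At 2 to 4 times background it was 0.69 over members and 0.49 over the others, and 57.9% of members in that class had a value of 0.6 or more, against 39.6% of the others. Among marked windows the medians were 0.71 over members and 0.66 over the others, but members had fewer CpG (median 52 against 59), a lower GC content (54.0% against 60.4%) and a smaller share at 0.6 or more (58.6% against 62.0%). The 6 promoters printed above had values of 0.81 for Hes1, 0.78 for Irf5, 0.58 for Bhlhe40, 0.28 for H2-Ab1, 0.26 for Plac8 and 0.17 for Btk. All 6 lie below the upper quartile of the members, 0.85, so the members richest in CpG are not among them. H2-Ab1, Plac8 and Btk lie below the lower quartile, 0.41. An annotated gene start lay at the centre of 77.4% of member windows and 77.3% of all.

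Short motifs were counted on both strands of the central 300 bases. The GC box GGGCGG was present in 60.9% of members and 52.4% of all windows, and in 63.5% of members and 47.3% of others at 2 to 4 times background, but in 12 of 29 marked members (41.4%) against 64.1% of other marked windows. The Ets motif CCGGAAG was present in 5.64% of members and 12.8% of all windows, but in 4.40% and 5.77% at 2 to 4 times background. The PU.1 form of the Ets motif, GAGGAAG, was present in 16.5% of members and 14.1% of all windows. TGGGAA, the RBPJ motif, was in 16.2% and 22.6%, and the STAT motif TTCNNNGAA in 3.76% and 6.67%. The interferon motif, GAAA followed by any 2 bases and GAAA, was present in 1.504% of members and 2.72% of all windows, the NF-kB motif, GGGA followed by any 2 bases and TTCC, in 1.88% and 1.497%, and the E-box CACGTG in 7.14% and 7.80%. For the RUNX motif TGTGGT the shares were 13.5% and 13.4%, for the AP-1 motif TGANTCA 6.39% and 5.45%, and for the TATA box TATAAA 8.65% and 8.92%. No 2 of these motifs are contained in each other, though they can overlap in place, and a match describes letters and not binding.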

How the data were processed

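H3K27me3 ChIP-seq and RNA-seq were available from 1 library per genotype and assay, 8 libraries in all. Per the labels' protocols, the authors aligned ChIP reads to mm9 with Bowtie 0.12.7 and kept reads with at most 2 errors and a single location. Further tools in the submitters' processing notes are Cuffdiff, Cufflinks and bcl2fastq, whose role is not given in the sources used here. The deposited ChIP signal is coverage per 1000000 reads in 25 bp bins, summed by the authors over a 6 kb window. The deposited RNA signal is the peak coverage per exon, already averaged over a gene's exons in the deposited values, which also give the number of exons. From the steps of the values, 1 read extended over 151 bp, and this gave the depth and read equivalents.

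Before ratios were taken, 1 was added to window areas and 0.1 to RNA values, with a minimum of 1 in the higher library, and calls were set at 1.5-fold for ChIP and 2-fold for RNA. With 1 library per genotype there is no SD and no p-value. Intervals are exact Clopper-Pearson intervals at 95%, and PCR reads without molecular identifiers make them cover counting error only. Calculations used Python 3.11.15, numpy 2.4.6, pandas 2.3.3, scipy 1.17.1 and matplotlib 3.10.9. The ratio and scaling code was tested on simulated data, and the interval code was not. Sequence came from the mm9 reference genome, and 12 windows had none. Older symbols were matched through RefSeq synonyms.

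Genes were named by rule: members 2-fold lower, the 10 lowest marked members, up to 4 per gene list, members with 2-fold RNA changes at the minimum, the 3 windows on each side of the threshold, the 5 extremes of each single-KO comparison, and the members highest in RNA. The 11 further members of the RNA comparison without a minimum, the neighbours of Coil and the histone group were named after their values had been seen. The members and the 19 gene lists were chosen with earlier results of these data known. Alternatives covered scaling, pseudocount, minimum, fold, the highest bin in place of the area, and exon summary.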

Additional observations from a re-analysis of the deposited data

How the results depend on the processing

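No paired analysis was possible because each group has 1 library. The number of members was 266 as reported, 508 with marked windows set equal between libraries, 64 with a pseudocount of 10, 25 at a fold of 2, and 1 with the highest bin in place of the area, where 13 windows reached the minimum. With the highest bin and a pseudocount and minimum scaled to it, chosen after seeing the data, it was 676, of which 153 are among the 266. Other scalings gave 312 to 341. Under that highest-bin setting the log2 ratio of Rere reversed to 0.055. Members 1.5-fold lower in the Ezh2 KO than in WT numbered 77 as reported, 149 with background set equal and 34 with marked windows set equal. In the Ezh1 KO against WT the count was 31 with marked windows set equal, against 6. In the Ezh2 KO against the Ezh1 KO it was 80 as reported, 47 with TMM, 47 with the median of ratios, 153 with background set equal and 4 with marked windows set equal. The member median itself ran from -0.61 to -0.38 over the scalings for the Ezh2 KO against WT, from -0.35 to 0.0015 for the Ezh1 KO against WT and from -0.64 to -0.05 for the Ezh2 KO against the Ezh1 KO, moving with that of all windows.

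For RNA of the double KO against WT, the member median minus that of all genes was 0.26, 0.15 with no minimum, and 0.14 with no minimum outside the 4 lists of B cell, MHC class II, antigen receptor and myeloid genes. Members 2-fold higher numbered 5, 2 with a pseudocount of 1, 13 with a minimum of 0.3, 16 with none, 1 with a minimum of 1 in WT, 3 outside the 4 lists, and 11 outside them with no minimum. For the Ezh2 KO the difference of medians was 0.30, 0.18 with a pseudocount of 1, 0.13 with no minimum, 0.93 over 3 members at 2-fold, 0.11 with a minimum of 1 in WT, 0.13 outside the 4 lists with no minimum, and 0.094 without histone genes. Its members 2-fold higher numbered 3, 1 with a pseudocount of 1, 5 with no minimum, 10 at a fold of 1.5, 1 among members at 2-fold, 0 with a minimum of 1 in WT, and 5 outside the 4 lists with no minimum. For the Ezh1 KO the difference was 0.06, 0.039 with a minimum of 0.3, and turned to -0.010 with no minimum and to -0.0037 outside the 4 lists with no minimum, and 1 member was higher at a fold of 1.5. The CpG difference was 0.08 against all windows, 0.19 at 2 to 4 times background, 0.19 at 1 to 2 times and 0.048 among marked windows. Medians over fewer than 3 members are not given. The cause of each change was not tested beyond the number of windows or genes compared. With 1 library per genotype, no value separates genotype from library, and no input or spike-in control sets the level between libraries.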
